A study of Mus musculus with 6 samples.

Results

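Keratin RNA levels were examined in lungs of adult mice that carry a deletion of the 5' part of Zpbp2 (KO) and of control C57BL/6J mice (WT). Members were all genes of the count table whose symbol is Krt followed by digits only, 47 of 41388 genes. Keratins with a letter in the symbol, such as Krt6a and Krt6b, were not members. Lungs were collected at ZT7, that is 7 h after lights on, from 3 WT mice (WT1 to WT3) and 3 KO mice (KO1 to KO3), with 1 library for each. The KO strain carries a Zpbp2 allele made in 129S7 cells, lacks exons 1 to 3 of the gene in every cell, and was kept on the C57BL/6J background. WT mice were born in the same colony. Total counts ranged from 59134950 to 71354388 per library. The counts of KO2 and KO3 lay near sampling noise, with a median variance of 1.71 to 3.37 times that of counting alone against 1.85 to 162 for the other pairs of a genotype, so they were counted as 1 sample (WT n = 3, KO n = 2). Zpbp2 itself had 20, 15 and 7 counts in WT1, WT2 and WT3 and 1, 0 and 0 in KO1, KO2 and KO3.

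Keratins are the intermediate filament proteins of epithelial cells. They assemble as obligate pairs of an acidic type I and a basic type II chain, and each kind of epithelium has its typical pair. Krt8 and Krt18 pair in simple epithelia such as the alveolar and bronchial lining, where Krt7 and Krt19 are also made. Krt5 and Krt14 pair in basal cells, which rest on the basement membrane of the trachea, oesophagus and skin, and Krt15 is a further basal cell keratin. Krt4 and Krt13 pair in the upper layers of moist squamous epithelium such as that of the oesophagus and tongue, whereas Krt1 and Krt10 do so in the epidermis. Hair, nail and the inner root sheath of the hair follicle have their own keratins.

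The members lie in 2 clusters of the GRCm38 genome. The 25 members on chromosome 11 are all type I, and 22 members on chromosome 15 comprise the 21 type II genes and the type I gene Krt18, which lies next to Krt8. The chromosome 11 cluster is on the same chromosome as the deleted gene. Its nearest member, Krt222, starts 674 kb from Zpbp2 and its farthest, Krt42, 1704 kb away. How much DNA around the deletion came from the strain in which the allele was made was not given in the sources used here.

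Promoters of 5 members are shown because the library patterns of these genes differ although their family is the same. Krt13 and Krt5 stand for the mucosal and basal keratins, Krt32 for a hair keratin that followed them, and Krt10 and Krt18 for the epidermal and simple keratins that did not. Each runs from 250 bases before to 50 bases after the RefSeq start (GRCm38.p6), 5' to 3' along the gene, and capitals mark TATAAA or TGANTCA on either strand. They are read from chr11:100121517-100121816 on the minus strand, chr15:101712856-101713155 on the minus strand, chr11:100088220-100088519 on the minus strand, chr11:99389315-99389614 on the minus strand and chr15:102027966-102028265 on the plus strand.
Krt13: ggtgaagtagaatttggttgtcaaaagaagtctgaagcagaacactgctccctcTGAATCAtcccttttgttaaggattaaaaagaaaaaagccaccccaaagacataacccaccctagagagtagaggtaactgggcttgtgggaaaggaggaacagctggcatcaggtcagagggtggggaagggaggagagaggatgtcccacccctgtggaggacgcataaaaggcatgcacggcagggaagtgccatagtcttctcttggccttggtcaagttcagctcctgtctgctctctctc
Krt5: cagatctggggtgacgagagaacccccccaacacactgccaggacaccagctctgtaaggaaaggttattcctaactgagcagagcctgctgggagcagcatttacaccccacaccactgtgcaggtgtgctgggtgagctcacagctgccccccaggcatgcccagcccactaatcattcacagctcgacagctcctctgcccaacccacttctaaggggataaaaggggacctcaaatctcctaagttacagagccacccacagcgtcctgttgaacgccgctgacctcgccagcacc
Krt32: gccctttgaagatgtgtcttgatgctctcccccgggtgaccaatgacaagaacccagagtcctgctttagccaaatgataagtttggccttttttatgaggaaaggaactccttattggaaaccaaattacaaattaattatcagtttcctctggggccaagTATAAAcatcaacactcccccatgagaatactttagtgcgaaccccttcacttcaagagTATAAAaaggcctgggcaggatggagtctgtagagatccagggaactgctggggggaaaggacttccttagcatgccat
Krt10: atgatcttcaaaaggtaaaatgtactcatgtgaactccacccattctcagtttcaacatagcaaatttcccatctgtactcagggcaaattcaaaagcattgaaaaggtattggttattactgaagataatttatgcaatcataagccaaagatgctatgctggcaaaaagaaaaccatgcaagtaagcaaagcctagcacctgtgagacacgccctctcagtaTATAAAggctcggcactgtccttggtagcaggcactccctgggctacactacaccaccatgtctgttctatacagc
Krt18: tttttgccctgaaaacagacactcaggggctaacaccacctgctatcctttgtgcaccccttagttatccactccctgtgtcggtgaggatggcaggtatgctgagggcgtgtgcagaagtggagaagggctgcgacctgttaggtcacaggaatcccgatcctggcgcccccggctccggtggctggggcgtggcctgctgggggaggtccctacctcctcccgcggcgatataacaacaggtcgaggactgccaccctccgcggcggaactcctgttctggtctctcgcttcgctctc

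RefSeq promoters were matched by symbol for 34 of the 47 members, and 3 of these (Krt7, Krt8 and Krt14) start more than 100 bases from the start in the annotation used. The letters TATAAA, counted on both strands, were in 18 of the 34 keratin promoters (52.9%) and in 13.6% of all 32851 promoters of this length. On the coding strand with their first letter 25 to 35 bases before the start, they were in 12 keratin promoters (35.3%) and in 1.75% of all promoters. Krt10 and Krt32 have such a match, 26 and 29 bases before the start, and the windows of Krt13, Krt5 and Krt18 have none. TGANTCA, the AP-1 core with any letter allowed in the middle, was in 1 keratin promoter, that of Krt13, and in 7.81% of all promoters. The match in Krt13 reads TGAATCA, whereas the AP-1 core has C or G in the middle. GGGCGG, the core of a GC box, was in 2 keratin promoters (5.88%) and in 35.7% of all. These are matches of letters and not tested sites.

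To see which epithelia the keratin RNA came from, the members were grouped by the tissue in which each is typically made and read library by library. In 4 of the 6 libraries nearly all keratin RNA was of the simple epithelial kind. In WT3 and KO1 most of it was mucosal squamous keratin, that is Krt4 and Krt13. Levels are given as CPM, the usual depth-normalised count, for which each count is divided by the scaled size of its library. Members at 3 counts or fewer in every library were treated as not detectable at this depth. There were 18 of these, 8 of them at 0 counts throughout, and 29 members had 4 or more counts in some library.

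The 47 members summed to 847 and 895 CPM in WT1 and WT2 and to 1175 and 1148 CPM in the libraries of KO2 and KO3. In WT3 and KO1 the sums were 5014 and 8836 CPM. As a share of all counts this was 0.0869% in WT1, 0.0912% in WT2, 0.116% in KO2 and 0.113% in KO3. It was 0.504% (95% Clopper-Pearson interval 0.502% to 0.505%) in WT3 and 0.864% (0.861% to 0.866%) in KO1. Such intervals hold for the counting error alone, because reads copied from the same molecule cannot be told apart. The 5 mucosal squamous members made up 77.7% (77.6% to 77.9%) of keratin counts in WT3 and 83.2% (83.1% to 83.3%) in KO1, and 0.102% to 0.243% in the other libraries. The 7 simple epithelial members made up 96.1% to 97.6% of keratin counts in those 4 libraries, and 17.1% and 11.8% in WT3 and KO1. The total therefore separated WT3 and KO1 from the rest and not the genotypes.

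**Figure D1:**
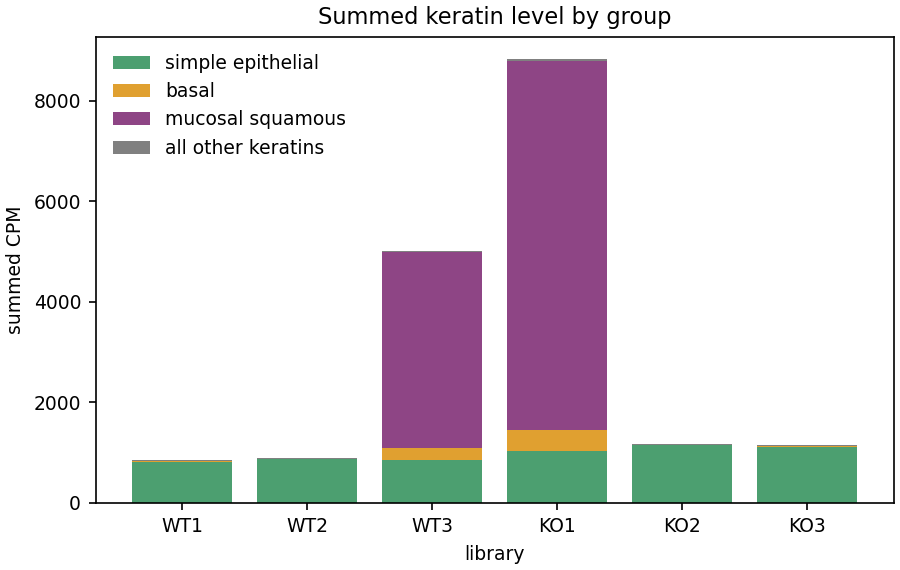
Summed CPM of keratin genes in each library, stacked by group (simple epithelial, basal, mucosal squamous, and all other keratins). The bars of WT3 and KO1 reach 5014 and 8836 CPM, mostly mucosal squamous keratin, while the simple epithelial part lies between 814 and 1146 CPM in every library.

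Krt4 and Krt13 carried this difference. Krt4 had 68 and 26 counts in WT1 and WT2, 39 in each of KO2 and KO3, 119209 in WT3 and 232524 in KO1. Krt13 had 67 and 25 counts in WT1 and WT2, 48 and 57 in KO2 and KO3, 111312 in WT3 and 225282 in KO1. In CPM, Krt4 reached 1985 in WT3 and 3687 in KO1, with no other library above 0.929. Krt13 reached 1853 and 3572, with no other library above 0.976. Both genotypes thus had a library with the pair and libraries nearly without it. Per kilobase of exon, the level of Krt4 was 0.914 times that of Krt13 in WT3 and 0.881 times in KO1. In WT1, WT2, KO2 and KO3, where each had at most 68 counts, it was 0.867, 0.888, 0.694 and 0.584 times.

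Other keratins of squamous mucosa followed the same 2 libraries. Krt78, a type II keratin, was at 57.4 CPM in WT3 and 91.3 CPM in KO1 and at 0.178, 0.128, 0.177 and 0.137 CPM in WT1, WT2, KO2 and KO3. Krt32, a type I hair keratin, had 506 counts in WT3, 1071 in KO1 and 0 in each of the other 4 libraries. Against the floor of 3 counts in a library, Krt32 was at least 197-fold higher in WT3 than in the other WT libraries and at least 330-fold higher in KO1 than in the other KO libraries. Krt76, known from the hard palate, stayed low, at 12 counts in WT3, 48 in KO1 and 3 or 4 elsewhere. Krt24, the fifth member of the mucosal group, had 1 count in all.

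Basal cell keratins were high in WT3 and KO1 and measurable in every library. Krt5 was at 2.14 and 2.35 CPM in WT1 and WT2, 130 CPM in WT3, 216 CPM in KO1 and 1.42 and 1.11 CPM in KO2 and KO3. Krt14 was at 1.02 and 0.684 CPM in WT1 and WT2, 28.9 CPM in WT3, 53.7 CPM in KO1 and 0.774 and 1.08 CPM in KO2 and KO3. Krt15 was at 6.81 and 4.80 CPM in WT1 and WT2, 74.2 CPM in WT3, 136 CPM in KO1 and 2.66 and 2.77 CPM in KO2 and KO3. The order of the basal keratins also differed. Per kilobase, the level of Krt5 was 0.253 to 0.429 times that of Krt15 in the 4 libraries low in squamous keratin, and 1.41 and 1.28 times that of Krt15 in WT3 and KO1. The ratio of Krt5 to Krt14 per kilobase was 3.60 and 3.22 in WT3 and KO1 and 0.826 to 2.75 in the others, where Krt14 had only 48 to 75 counts.

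**Figure D2:**
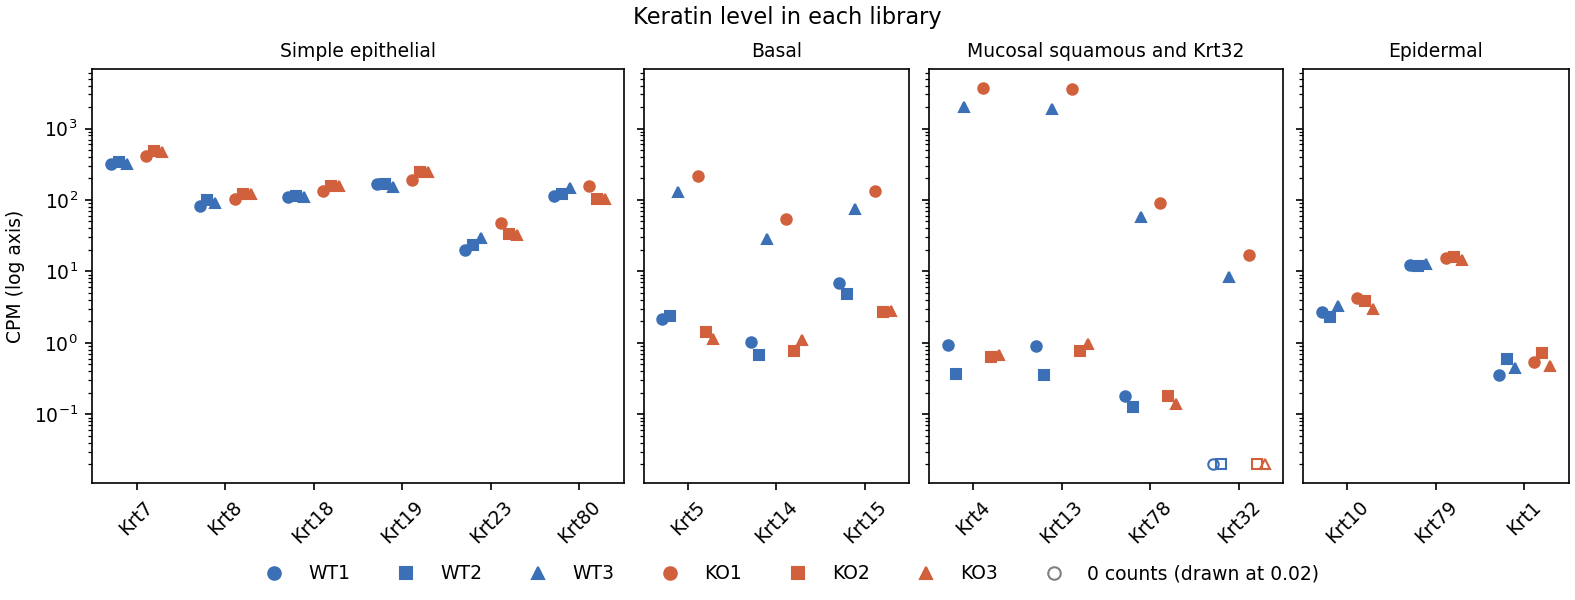
CPM on a log axis of 16 keratin genes in each library, in panels by group, with WT in blue and KO in orange and marker shapes for the replicate number. Open symbols are libraries with 0 counts, drawn at 0.02. Krt4, Krt13, Krt78, Krt32 and the basal keratins are high in WT3 and KO1, while Krt7, Krt8, Krt18, Krt19 and Krt10 differ by at most 1.85 times between libraries.

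Across the tested members, WT3 and KO1 lay above the other 4 libraries for 12 of 23, against 12.3% of all 18660 genes tested. For 8 of 23 the lower of these 2 libraries was at least 4-fold above the highest of the other 4, against 1.80% of all genes tested. The 8 were Krt4, Krt13, Krt78, Krt5, Krt14, Krt15, Krt32 and Krt35. No floor was applied in this count. Against the floor of 3 counts, Krt35 in WT3 was only 3.90-fold above the other WT libraries. Krt32, Krt35, a further hair keratin with at most 15 counts, and Krt76 entered the test through WT3 and KO1 alone. Over the 20 members that were also tested without these libraries, 9 had WT3 and KO1 on top, against 11.2% of all such genes, and 6 by at least 4-fold, against 0.836%. The remaining 4 of the 12 were Krt17, Krt36, Krt76 and Krt80, of which only Krt80 exceeded 1 CPM. KO1 had more than WT3 for each of the 8, by 1.43 to 2.02 times in CPM, with a median of 1.84. The 327 other genes with the same pattern had a median ratio of 1.60, and quartiles of 1.37 and 1.83.

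The epidermal keratins did not share this pattern. Krt10 was at 2.75, 2.27 and 3.30 CPM in WT1 to WT3 and 4.19, 3.84 and 2.997 CPM in KO1 to KO3. Krt1, its partner, was at 0.355 to 0.598 CPM in WT and 0.480 to 0.725 CPM in KO. Krt2, the type II keratin of the outer epidermis, and Krt9, a type I keratin of palms and soles, had 0 counts in every library. Krt79, grouped here with the epidermal keratins and known from the hair follicle opening, was at 12.3, 11.9 and 12.6 CPM in WT and 15.2, 15.7 and 14.5 CPM in KO. The wound keratins were low, with at most 1 count of Krt16 and 7 to 32 counts of Krt17 in a library. Among the 12 hair and nail members only Krt32 exceeded 1 CPM, and the 9 inner root sheath members summed to at most 0.285 CPM. The cornea keratin Krt12 had at most 3 counts.

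**Figure D3:**
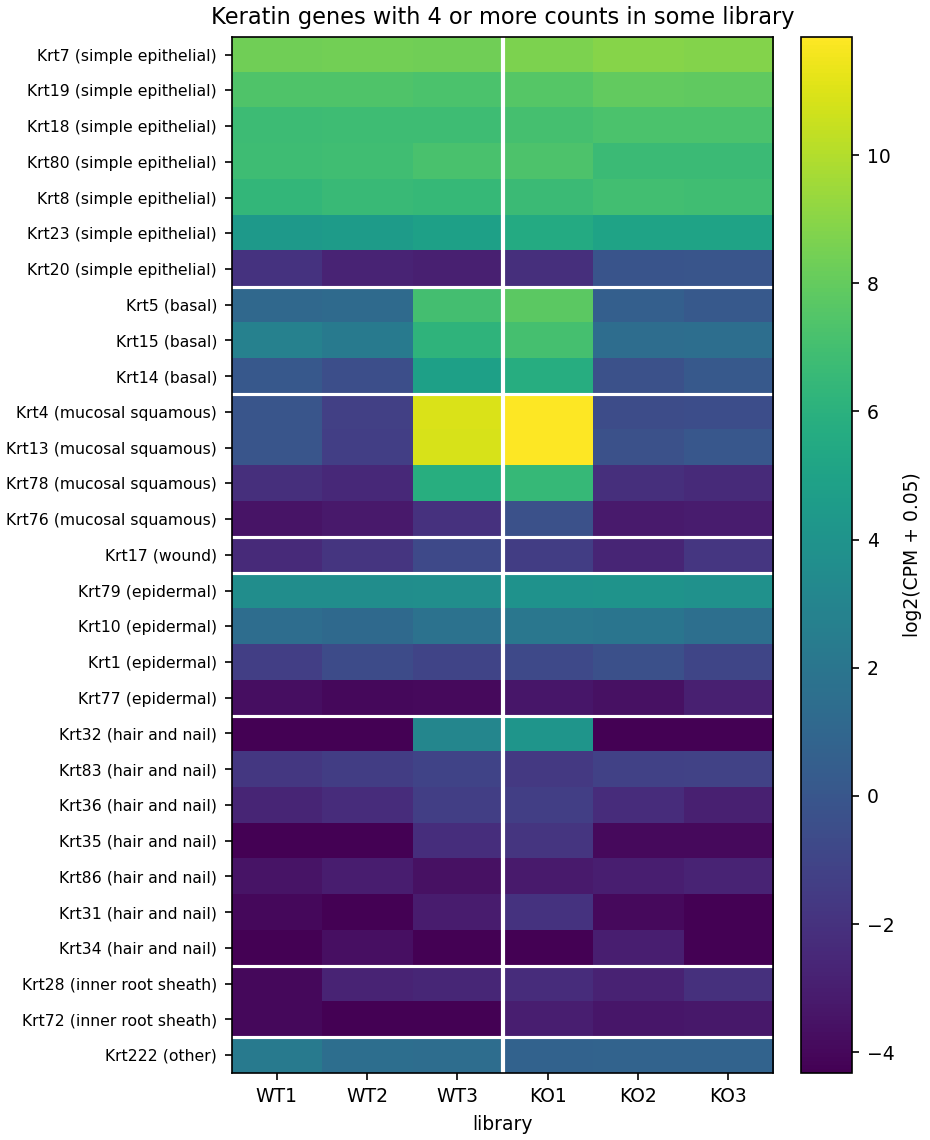
Heat map of log2(CPM + 0.05) for the 29 keratin genes with 4 or more counts in some library (rows, grouped by epithelium) in the 6 libraries (columns, WT left and KO right of the white line). The bright cells of Krt4 and Krt13 are in WT3 and KO1 only, and Krt7, Krt8, Krt18 and Krt19 differ by 1.42 to 1.63 times between their lowest and highest library, while Krt20 runs from 0.0833 CPM in WT3 to 0.891 CPM in KO3.

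Genes that are no keratins moved with the same libraries. The 29 squamous barrier genes of the table summed to 162 and 172 CPM in WT1 and WT2, 202 and 204 CPM in KO2 and KO3, 1933 CPM in WT3 and 3275 CPM in KO1. Of the 27 tested, 26 were highest in WT3 and KO1, against 12.3% of all genes, and of the 17 also tested without these libraries 16 were, against 11.2%. Rptn, Dmkn and Sprr3, the highest by mean level over the libraries, were at 270, 179 and 214 CPM in WT3 and at 437, 306 and 373 CPM in KO1. Sprr3 was at most at 0.0683 CPM elsewhere. Skeletal muscle genes summed to 3891 CPM in WT3 and 6067 CPM in KO1 and to 36.0 to 105 CPM elsewhere, led by Acta1, Myh8 and Ckm at 1200, 563 and 539 CPM in WT3 and 2055, 1135 and 785 CPM in KO1, and 11 of 12 were at least 4-fold up in both libraries, against 1.80% of all genes (10 of the 11 also tested without them, against 0.836%). Epidermis and hair genes summed to 591 and 1282 CPM in WT3 and KO1, led by Lor at 279 and 725 CPM and Asprv1 at 229 and 435 CPM, and to 7.32 to 8.90 CPM elsewhere. Flg was at 0.433 and 0.904 CPM, while Flg2, Hoxc13 and the squamous gene Crnn had 0 counts in all libraries. Thymic epithelium genes summed to 383 to 439 CPM, mostly Ctsl at 231 to 266 CPM and Dll4 at 109 to 148 CPM. The sum therefore says little about the low members of this list. Of these, the defining member Foxn1 was at 0.683 and 1.40 CPM in WT3 and KO1 and at 0 elsewhere, and Psmb11 was at most at 0.0273 CPM. Thyroid genes summed to 12.3 to 15.8 CPM. Within that list Foxe1 was at 0.833 and 1.73 CPM in WT3 and KO1 and at most 0.0685 CPM elsewhere, and Tshr was called lower, at 3.77 to 6.14 CPM in WT and 0.745 to 1.15 CPM in KO (edgeR adjusted p 0.0446), against 0.906% of all genes called lower. Without WT1, WT2 or WT3 this call was lost. Lung markers were high in all 6 libraries, with Sftpc at 12104 to 19515 CPM and Scgb1a1 at 23323 to 42778 CPM. The part of these other transcripts in the keratin levels was not tested. In bulk RNA, more cells of a type and more RNA per cell cannot be told apart.

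The simple epithelial keratins, the ones typical of lung, were compared between genotypes next. Krt7, Krt8, Krt18, Krt19 and Krt23 were higher in every KO library than in every WT library, a pattern that 20% of all genes tested shared, and none passed the test at an adjusted p of at most 0.05. The 7 members summed to 814, 868 and 855 CPM in WT1 to WT3 and 1039, 1146 and 1120 CPM in KO1 to KO3. Krt7, the highest in CPM, was at 320, 342 and 324 CPM in WT and 410, 483 and 465 CPM in KO. WT lungs averaged 328 ± 12.0 CPM (SD, n = 3) and KO lungs 442 ± 45.7 CPM (SD, n = 2). The log2 fold change was 0.43 (SE 0.08, edgeR adjusted p 0.0597). Krt18 was at 109, 115 and 111 CPM in WT and 133, 155 and 155 CPM in KO, with a log2 fold change of 0.37 (SE 0.08, edgeR adjusted p 0.0704). Its partner Krt8 was at 81.9, 98.5 and 91.0 CPM in WT and 102, 122 and 121 CPM in KO, with a log2 fold change of 0.31 (SE 0.11, edgeR adjusted p 0.160). Krt8 and Krt18 kept their proportion, with a ratio per kilobase of 0.552 to 0.631 in the 6 libraries.

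Krt19, made in airway and alveolar type 1 cells, was at 170, 169 and 152 CPM in WT and 188, 248 and 243 CPM in KO, with a log2 fold change of 0.41 (SE 0.13, edgeR adjusted p 0.127). Krt23, a less studied type I keratin grouped here, was at 20.2, 23.3 and 29.0 CPM in WT and 47.9, 33.5 and 32.7 CPM in KO, with a log2 fold change of 0.75 (SE 0.21, edgeR adjusted p 0.106). KO1 was the highest library for Krt23 and the lowest KO library for Krt7, Krt8, Krt18 and Krt19. Krt20, a keratin of gut epithelium, had 15, 7 and 5 counts in the WT libraries, 11 in that of KO1, and 55 and 52 in those of KO2 and KO3. Its values therefore overlapped, with 0.531 ± 0.505 CPM (SD, n = 2) in KO against 0.129 ± 0.0660 CPM (SD, n = 3) in WT, and an edgeR adjusted p of 0.173. Krt80, found at cell junctions, was at 113, 121 and 148 CPM in WT and 159, 104 and 102 CPM in KO, highest in WT3 and KO1, with an edgeR adjusted p of 0.921. By level per kilobase in WT, Krt19 (82.1 to 91.5) and Krt18 (75.8 to 79.7) stood above Krt7 (45.3 to 48.5) and Krt8 (41.8 to 50.3). The last pair overlapped.

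Levels of lung epithelial markers also differed between these libraries. The 12 alveolar type 2 genes summed to 27770 to 29550 CPM in WT and 38520 to 40770 CPM in KO, led by Sftpc, Lyz2 and Sftpb. Of these 12 genes 4 were called higher with edgeR, against 1.38% of all genes, as were 2 of 10 alveolar type 1 genes and 1 of 11 ciliated cell genes. With an offset for exon length, or without WT1, WT2 or WT3, 0 genes of the whole table were called higher, so each of these calls was lost. The 12 airway secretory genes summed to 30740 to 36290 CPM in WT, 39550 CPM in KO1 and 52720 and 52520 CPM in KO2 and KO3. Scgb1a1 alone was at 23323 to 27464 CPM in WT and 32026 to 42778 CPM in KO. By the estimate 6 of the 12 were higher and 6 lower, with a median log2 fold change of 0.02, and Bpifa1 was at 830 to 1196 CPM in WT and 208 to 572 CPM in KO. For alveolar type 1 genes the sums were 7225 to 7900 CPM in WT and 7803 to 8242 CPM in KO, for ciliated cell genes 2290 to 2652 and 2171 to 3033 CPM, and for mesothelial genes 783 to 822 and 806 to 1088 CPM. Of the 10 alveolar type 1 genes 4 were higher and 6 lower by the estimate, with a median log2 fold change of -0.06. Of the 11 ciliated cell genes 7 were higher and 4 lower. The part of these cell types in the simple keratin levels was not tested.

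Among the remaining tested members Krt79 and Krt222 separated the genotypes by their ranges, Krt79 above (20% of all genes) and Krt222 below (20.8%). Krt72 and Krt77, too low to be tested, had 0 to 2 counts in WT libraries and 2 to 5 in KO libraries. Krt79 had a log2 fold change of 0.31 (SE 0.07, edgeR adjusted p 0.0799). Krt222, a divergent keratin-like gene and the member nearest to Zpbp2, was at 4.998, 2.78 and 2.75 CPM in WT and 1.68, 1.76 and 1.75 CPM in KO, with a log2 fold change of -1.03 (SE 0.33, edgeR adjusted p 0.130). WT1 was well above the other WT libraries for this gene, and without it the log2 fold change was -0.68.

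Over the whole family, 23 members were tested and 0 were called with the edgeR quasi-likelihood test, against 2.28% of all genes tested (1.38% higher in KO and 0.906% lower). DESeq2 called 6 of them, against 20.8% of the same genes. With p values not adjusted, 8 of 23 lay at or below 0.05, against 27.3% of all genes. Every KO library was above every WT library for 6 members, against 20% of all genes, and below for 1 member, against 20.8%. The median log2 fold change was 0.46 over the 23 members and 0.02 over all genes tested. The members that passed the filter on low counts include those high in WT3 and KO1 only, and KO1 is 1 of 2 KO samples while WT3 is 1 of 3 WT samples. On chromosome 11, 12 members were tested, 10 higher and 2 lower in KO by the estimate, and on chromosome 15 all 11 tested were higher. Of all 18660 genes tested, 9732 were higher by the estimate. Among the 11, Krt80 and Krt83 had log2 fold changes of 0.04 and 0.00016. Without WT3 and KO1 those of Krt4, Krt5 and Krt80 were -0.012, -0.82 and -0.19. For Krt4 and Krt13 the log2 fold changes of 1.48 and 1.53 had standard errors of 3.62 and 3.58, so no difference between genotypes could be seen against the spread of the replicates. The edgeR adjusted p was 0.694 to 0.828 for Krt4, Krt13, Krt78, Krt5, Krt14, Krt15, Krt32 and Krt35.

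**Figure D4:**
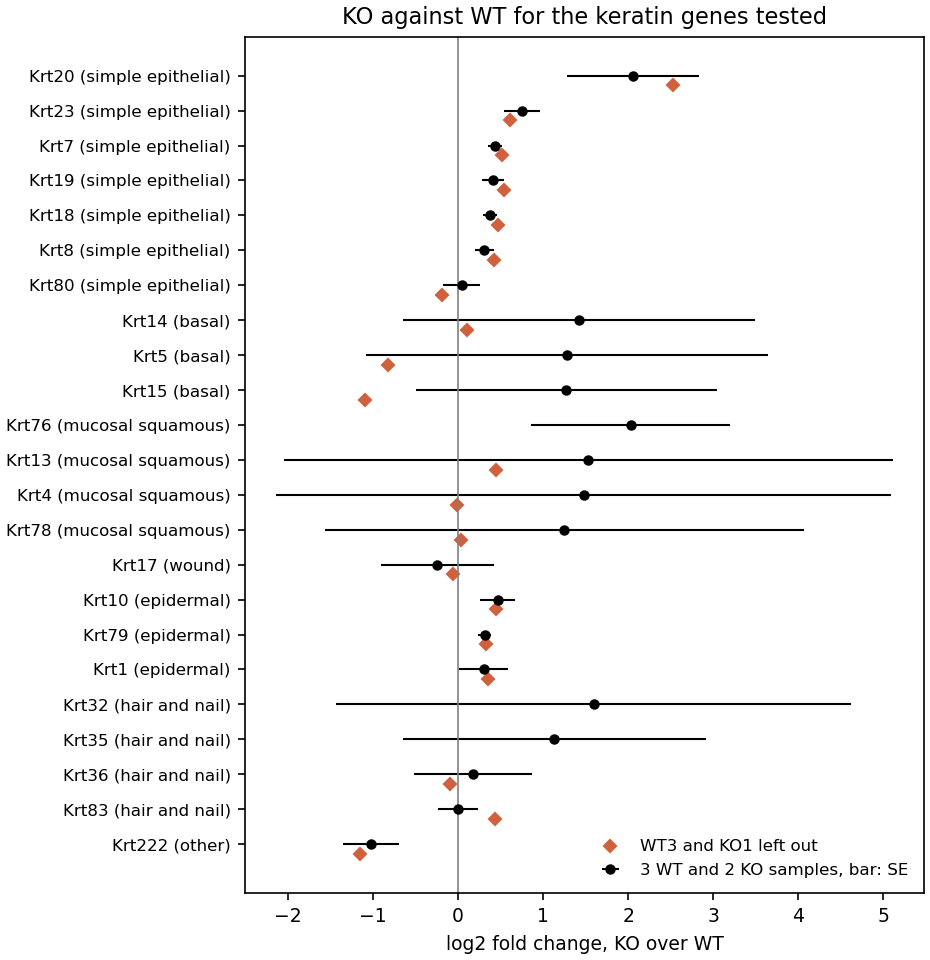
Log2 fold change of KO over WT for the 23 keratin genes tested, by group, with bars for the standard error (black) and the estimate without WT3 and KO1 (orange diamonds, for the 20 genes still tested). Simple epithelial keratins other than Krt80 lie to the right of 0 in both, and the basal and mucosal squamous keratins have standard errors of 1.17 to 3.62.

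No member was called with DESeq2 scaling factors (2.29% of all genes), library size alone (1.64%) or no filter on low counts (1.53%). With at least 10 counts in each library Krt7 was called, against 5.54% of all genes. The fit with a term for squamous genes called 8 members, 5 higher and 3 lower in KO, against 11%. That term was the log2 sum of the 29 squamous barrier genes in the same samples, itself high in WT3 and KO1. The 3 lower members, Krt5, Krt32 and Krt78, share this pattern. With the replicate number as a block 3 were called, against 6.42%.

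The calls also changed with the choice of samples and with other settings. With both left out, so that 2 WT samples were compared with the summed KO2 and KO3 as the only KO sample, 7 of 20 tested members were called, against 11.9% of all genes. Krt7, Krt8, Krt18, Krt19, Krt20 and Krt23 were higher, with log2 fold changes of 0.52, 0.43, 0.47, 0.53, 2.52 and 0.61 and edgeR adjusted p values of 0.00884 to 0.0436. Krt15 was lower, with a log2 fold change of -1.10 (edgeR adjusted p 0.0257). This fit assumes that the lone KO sample varies like the WT samples. With the 6 libraries kept separate, 5 of 20 were called, against 18.9% of all genes. These were Krt7, Krt18, Krt19 and Krt79, higher in KO, and Krt222, lower in KO. With an offset for exon length, 0 of 23 were called with edgeR, against 0.0214% of all genes. In that fit 4 of the 23 had an unadjusted p within 0.05, against 4177 of all 18660 genes. The log2 fold changes of Krt8, Krt18 and Krt19 were 0.17, 0.20 and 0.27. Those of Krt7, Krt23 and Krt79 were 0.51, 0.59 and 0.31.

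Genes that anchor or control keratin filaments were compared from lists. Of 19 linker genes, which tie keratins to desmosomes and hemidesmosomes, 18 were tested, 12 higher and 6 lower by the estimate, and 1 was called. Dst, a plakin that links filaments to hemidesmosomes, fell from 423, 445 and 453 CPM in WT to 294, 302 and 290 CPM in KO, with a log2 fold change of -0.57 (edgeR adjusted p 0.0446), against 0.906% of all genes called lower. With an offset for exon length it was -0.15 (adjusted p 0.416). Without WT1, WT2, WT3 or KO1 the log2 fold change of Dst was -0.60 to -0.56 and the adjusted p 0.0829 to 0.189. Leaving out WT1, WT2 or WT3 left 0 calls over all genes. Jup and Plec, the other most abundant linkers, had adjusted p values of 0.376 and 0.703. Of the 18 tested linkers, 13 were highest in WT3 and KO1, against 12.3% of all genes, and 12 of the 17 also tested without these libraries were, against 11.2%. Among the 13 were the desmosome genes Pkp1, Dsc3 and Dsg3, each at 11.9 to 99.4 CPM in WT3, 13.2 to 155 CPM in KO1 and at most 0.355 CPM elsewhere. These genes are also on the squamous barrier list above, so they are not separate evidence. Dsg3 had at most 1 count outside WT3 and KO1 and was tested through these libraries alone.

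Of 18 transcription factors known to act on keratin genes, all were tested and 0 were called with edgeR and 3 with DESeq2, and 3 had an unadjusted p within 0.05, against 2.28%, 20.8% and 27.3% of all genes. WT3 and KO1 were highest for 13, against 12.3% of all genes, and 6 were at least 4-fold up in both, against 1.80%, namely Trp63, Grhl3, Pitx1, Tfap2a, Tfap2c and Foxn1. Of the 16 factors also tested without these libraries, 11 were highest in them, against 11.2%, and 4 by at least 4-fold, against 0.836%. Trp63, the master regulator of stratified epithelium, was at 1.82 and 2.24 CPM in WT1 and WT2, 9.74 CPM in WT3, 12.8 CPM in KO1 and 1.24 and 1.01 CPM in KO2 and KO3. The abundant factors Notch1, Klf4 and Ehf had adjusted p values of 0.290, 0.502 and 0.415. Of 15 tested intermediate filament genes outside the keratins, 0 were called with edgeR and 2 with DESeq2, and 3 had an unadjusted p within 0.05, against the same shares of all genes. WT3 and KO1 were highest for 5, against 12.3% of all genes, and none was 4-fold up in both libraries. Vim, the most abundant, was at 827 to 912 CPM in WT and 799 to 939 CPM in KO. Des, the filament of muscle, was at 276, 190 and 461 CPM in WT and 663, 215 and 212 CPM in KO, and Nes was at 210 to 228 CPM in WT and 218 to 250 CPM in KO.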

How the data were processed

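The authors deposited raw counts, whole numbers of reads for each gene in each library, not normalized. These came from the GenPipes pipeline, with STAR as the aligner (GRCm38) and HTSeq-count as the counter, after removal of poor-quality sequence. The submitters' processing notes name Trimmomatic 0.36, STAR 2.5.3a, Picard 2.9.0 and HTSeq 0.6.0. The annotation release and the use of strand are not given in the sources used here, so counts of Krt5, Krt7, Krt8, Krt10, Krt12, Krt32, Krt75, Krt76 and Krt80, whose exons overlap a gene on the other strand, are uncertain, as are those of near-identical paralogs such as Krt14, Krt16 and Krt17.

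Coordinates and exon lengths came from GENCODE M21. The analysis used edgeR 4.0.16 in R 4.3.3 (filterByExpr, TMM, glmQLFit and glmQLFTest, two-sided), and p-values were adjusted with Benjamini-Hochberg over all genes tested. KO2 and KO3 were summed. CPM used TMM-scaled library sizes of the 6 libraries, and a mean ± SD takes KO2 and KO3 as 1 value. The script was tested on simulated counts. Alternatives were other scalings and filters, DESeq2 1.42.0, 6 separate libraries, a replicate block, left-out libraries, a term for squamous genes and a length offset. Members and lists were chosen with earlier results of these data known. The rule for named genes was each member at 1 CPM or more in some library and the 3 genes of a list with the highest mean CPM. Some lists are given by their sums or only some of those genes, and other genes named were chosen after their values were seen. Of the genes tested with edgeR, 931 have no DESeq2 adjusted p and count as not called by it.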

Additional observations from a re-analysis of the deposited data

How the results depend on the processing

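The number of keratin genes called with edgeR was 0 with DESeq2 scaling factors, library size alone, no filter, the length offset and each left-out library. It was 1 where each library needed 10 counts or more, 6 with DESeq2, 5 with the 6 libraries kept separate, 7 without WT3 and KO1 and 8 with a term for squamous genes. Over all genes these 5 settings gave 937, 3889, 3402, 2256 and 2051 calls, the length offset gave 4, and leaving out a library gave 0 to 418. Leaving out WT1, WT2 or WT3 each gave 0 calls, with 3346 to 4193 genes having an unadjusted p within 0.05, and leaving out KO1 gave 17. The replicate block gave 3 keratin calls (Krt7, Krt8 and Krt18) and 1157 calls over all genes, 6.42% of those tested. The deviations of libraries with the same number had correlations of -0.65, 0.77 and -0.83. Because WT3 and KO1 stand apart and KO2 resembles KO3, these values cannot tell whether a number marks a pair. Pairing was not tested.

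Krt1, Krt7, Krt8, Krt10, Krt18, Krt19, Krt20, Krt23 and Krt79 were higher in KO, and Krt222 lower, in every alternative that tested them. Some log2 fold changes turned. With the term for squamous genes they were -1.30 for Krt4, -0.89 for Krt5, -1.04 for Krt13, -0.24 for Krt14, -0.75 for Krt15, -1.59 for Krt32, -0.0056 for Krt35, -0.24 for Krt36, -1.05 for Krt78 and -0.12 for Krt80. Of these Krt5, Krt32 and Krt78 had an adjusted p of 0.0256 to 0.0479. Without WT3 and KO1 they were -0.012 for Krt4, -0.82 for Krt5, -1.10 for Krt15, -0.092 for Krt36 and -0.19 for Krt80. With 6 libraries they were -0.0078 for Krt36 and -0.068 for Krt80. With the replicate block they were -0.64 for Krt5, -0.64 for Krt15, -0.022 for Krt36 and -0.091 for Krt80. Krt80 was at -0.012 with library size alone. Krt83 was at -0.0045 with DESeq2 scaling factors, -0.052 with library size alone, -0.0022 with no filter and -0.12 with the length offset. Leaving out a library gave -10.00 to 11.47 for Krt4, -5.14 to 5.60 for Krt5, -9.47 to 11.45 for Krt13, -3.47 to 4.99 for Krt14, -3.40 to 3.57 for Krt15, -0.76 to 0.43 for Krt17, -10.83 to 1.60 for Krt32, -0.70 to 0.75 for Krt36, -0.53 to 2.09 for Krt76, -6.92 to 8.21 for Krt78, -0.31 to 0.16 for Krt80 and -0.16 to 0.23 for Krt83. For Krt4, Krt5, Krt13, Krt14, Krt15 and Krt78 the lowest value is that without KO1 and the highest that without WT3. Krt32 and Krt76 were not tested without WT3, and their lowest value is that without KO1. The causes of the other differences were not tested.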
